A study of Mus musculus with 17 samples.

Results

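Cytochrome P450 genes of the mouse lung were examined in whole-lung RNA from NOS2-/- and wild-type mice challenged with lipopolysaccharide (LPS) or saline. A gene was included when an array probe set named it alone and its symbol was Cyp followed by a digit. Of the 12393 genes with such a probe set, 63 were P450 genes. They had 78 probe sets in all, 12 of them having more than 1, and each gene was represented by its probe set of highest mean signal. A further 4 P450 probe sets named several genes and were left out. Expression was measured on Affymetrix mouse arrays, 1 array per mouse, and all signals below are on the log2 scale, so that a difference of 1 is a doubling. The mice were males bought from 1 supplier, and the wild-type strain was C57BL/6J. The study's methods gave no strain background for the NOS2-/- line, in which the gene of the inducible nitric oxide synthase is disrupted in the germ line. LPS from Escherichia coli O111:B4 was injected into a vein at 20 mg/kg, and lungs were taken 22 h or 7 h later. The groups were 3 NOS2-/- mice 22 h after LPS, 3 wild-type mice 22 h after LPS, 3 NOS2-/- mice 7 h after LPS, 3 wild-type mice 7 h after LPS, 1 NOS2-/- mouse 22 h after saline and 4 wild-type mice 22 h after saline. No mouse received saline for 7 h, so the 7 h comparison with saline differs in time as well as in treatment. The single NOS2-/- saline mouse was assumed to vary like the other mice, and every p-value measures the spread between these individual mice.

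Cytochrome P450 enzymes are haem proteins that insert an oxygen atom into their substrates, using electrons passed on by a reductase or, in mitochondria, by ferredoxin. Some families oxidise foreign compounds such as drugs and smoke constituents, and others act on fatty acids, sterols, bile acids, vitamin D, retinoic acid and steroid hormones. In the mouse lung, Cyp2f2 and Cyp4b1 are known from the club cells of the airways, where they activate several inhaled toxicants, and Cyp1a1 is known from the pulmonary endothelium and epithelium, where it is induced through the aryl hydrocarbon receptor. Inflammation is known to lower many liver P450 enzymes.

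The labelled tissue was borne out by bright signals of Sftpc, the surfactant protein C gene of alveolar type 2 cells, between 14.2 and 14.9 on all 17 arrays, while the median of 6 liver genes lay 0.27 to 0.72 below the array median on every array. Nos2, the targeted gene, had signals of 9.20, 9.25 and 8.99 in NOS2-/- mice and 8.80, 8.19 and 8.48 in wild-type mice 22 h after LPS, against 8.29 in the NOS2-/- saline mouse and 7.75 to 8.47 in wild-type saline mice. The sources used here do not say whether its probe set lies in the disrupted part of the gene, so this signal does not check the genotype labels. A pair of arrays stood apart. Replicate 2 of the wild-type mice at 22 h of LPS correlated with its 2 group mates at 0.955 and 0.949 (Pearson's r across probe sets), against 0.996 between those mates. The NOS2-/- saline mouse carried Krt4, a keratin of squamous epithelium, at 14.2, against 8.18 to 8.72 on every other array, and it also had raised genes of skeletal muscle (list median 2.86 above the array median, against -1.70 to 0.02 elsewhere). As alternatives, this wild-type array was left out, or the 4 wild-type saline mice took the place of the NOS2-/- saline mouse. In whole lung, fewer cells of a type and less RNA per cell cannot be told apart.

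LPS moved P450 genes in both directions. In the fit reported here, more of them were called lower than higher. In NOS2-/- mice some alternative fits, given at the end, turned this order. At 22 h, 3 of the 63 P450 genes were higher and 8 lower in NOS2-/- mice than in the NOS2-/- saline mouse by limma's moderated test at an adjusted p under 0.05, where 27.6% of all 22626 probe sets were called (11.6% higher, 16.0% lower). In wild-type mice at 22 h, 4 were higher and 12 lower than in saline, 25.4% of the P450 genes against 32.8% of all probe sets (12.8% higher, 20.0% lower). At 7 h, 3 were higher and 8 lower in NOS2-/- mice (22.5% of all probe sets called, 8.78% higher and 13.7% lower), and 4 were higher and 11 lower in wild-type mice (32.3%, 14.4% higher and 17.9% lower). The called share of P450 genes was thus below that of all probe sets in each of the 4 LPS comparisons. The median P450 difference in wild-type mice at 22 h was 0.02, against -0.00 over all probe sets. Without replicate 2 of the wild-type LPS group at 22 h, 6 P450 genes were higher and 13 lower, with 41.2% of all probe sets called. With the 4 wild-type saline mice in place of the NOS2-/- saline mouse, 5 were higher and 12 lower in NOS2-/- mice at 22 h, with 40.8% of all probe sets called, and 8 higher and 11 lower at 7 h, with 36.7% called.

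Over the 4 LPS comparisons, 20 of the 63 genes were called at least once and 43 never. The 6 genes called lower in all 4 were Cyp1a1, Cyp2e1, Cyp2f2, Cyp2s1, Cyp4b1 and Cyp27a1, and the 2 called higher in all 4 were Cyp1b1 and Cyp7b1. The share of all probe sets called at least once, or in all 4, was not computed. These counts therefore do not set P450 genes apart from other genes. Many of the genes never called were dim: 38 of the 63 had a mean signal below the 40th percentile of all probe sets, and the files hold no detection calls. Of the 16 P450 genes above the 50th percentile, 11 were called in wild-type mice at 22 h, against 5 of the 47 below it. Of all probe sets, bright and dim together, 32.8% were called in that comparison. The share among all bright probe sets was not computed, so these counts do not set bright P450 genes apart from other bright genes.

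**Figure D1:**
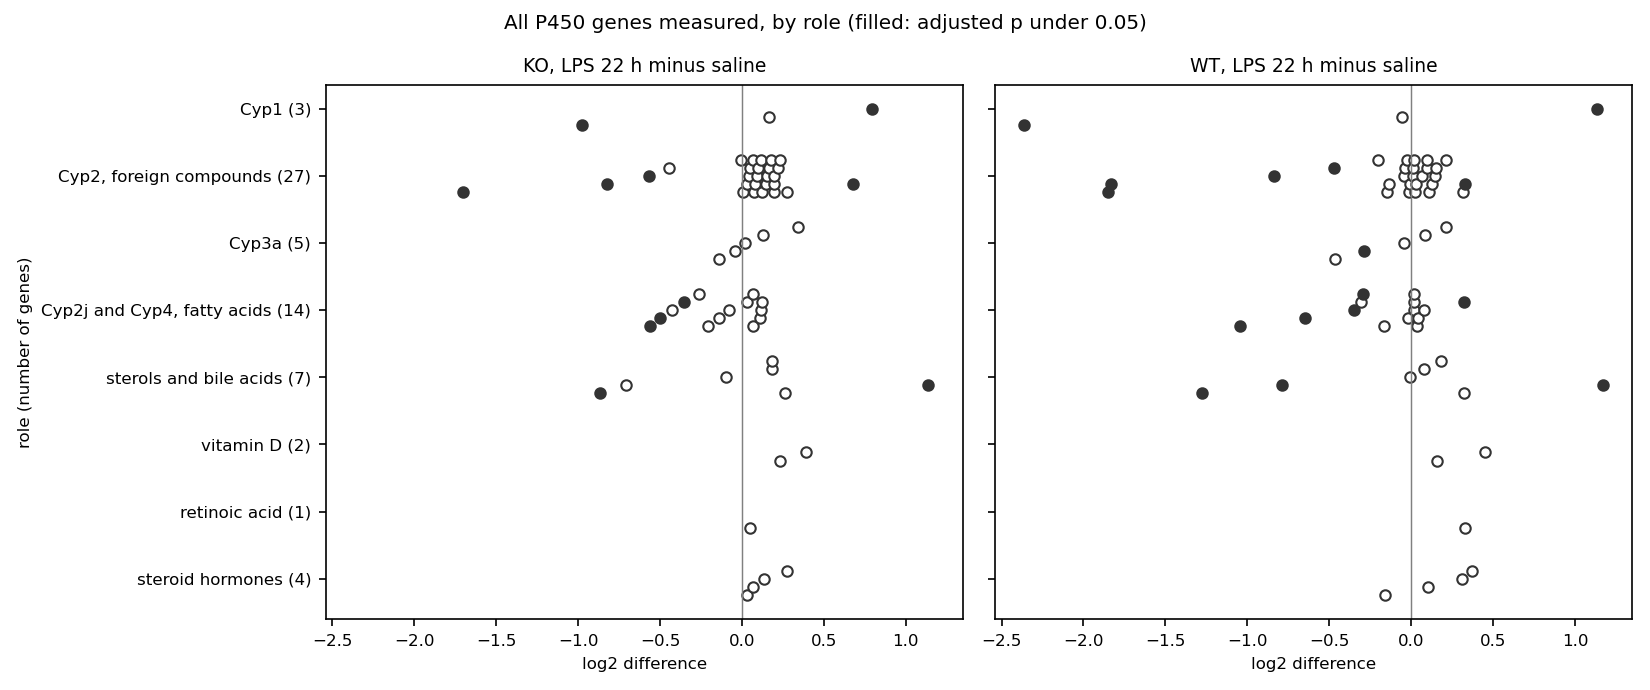
Log2 difference between LPS at 22 h and saline (x axis) for all 63 P450 genes, grouped by role (y axis, number of genes in brackets), in NOS2-/- mice (KO, left) and wild-type mice (WT, right). Each point is 1 gene and filled points had an adjusted p under 0.05. The lowest wild-type points are Cyp1a1 at -2.36, Cyp2f2 at -1.85 and Cyp2e1 at -1.83, and most unfilled points lie near 0.

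**Figure D2:**
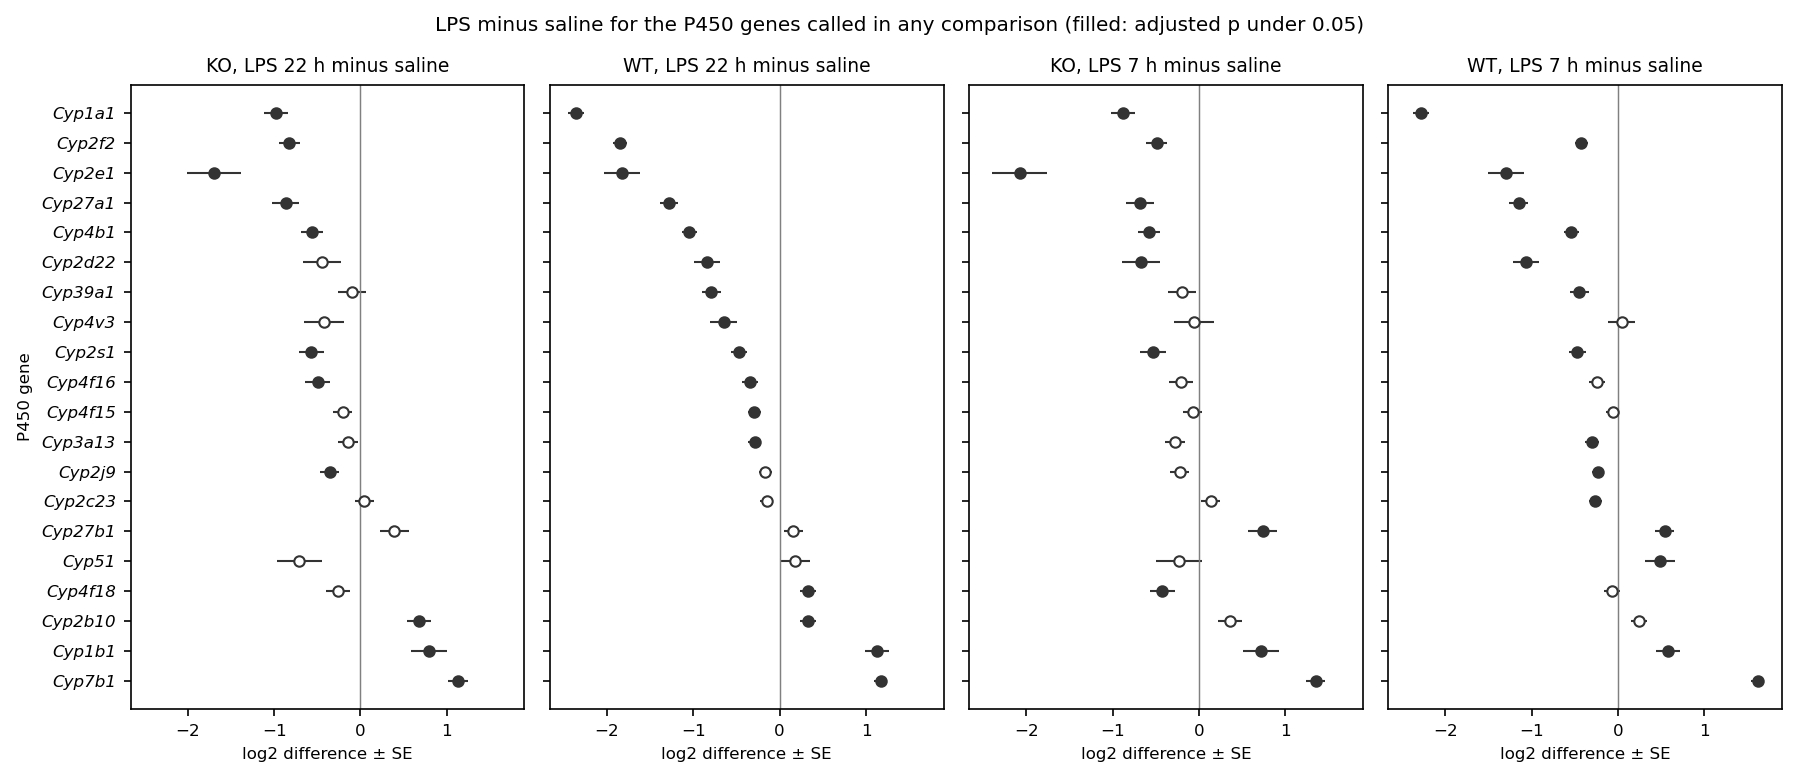
Log2 difference between LPS and saline with its standard error (x axes) for the 20 P450 genes called in at least 1 comparison (y axis), in NOS2-/- (KO) and wild-type (WT) mice at 22 h and 7 h. Filled points had an adjusted p under 0.05. Cyp7b1 and Cyp1b1 lie right of 0 in each panel, and Cyp1a1, Cyp2f2, Cyp2e1, Cyp27a1, Cyp4b1 and Cyp2s1 left of 0.

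The Cyp1 family oxidises planar aromatic compounds and is transcribed through the aryl hydrocarbon receptor, a ligand-activated transcription factor that binds DNA at elements with the core GCGTG. Its 2 lung members moved in opposite directions after LPS, Cyp1a1 falling and Cyp1b1 rising. The 250 bases before the RefSeq start site of each gene (GRCm38.p6) are shown because both held the core, printed in capitals (GCGTG, or CACGC where it lies on the other strand). The Cyp1a1 window lies at chr9:57697363-57697612 on the + strand with the core starting at position -54 from the start site, and the Cyp1b1 window at chr17:79715062-79715311 on the - strand with the core at position -76.
Cyp1a1: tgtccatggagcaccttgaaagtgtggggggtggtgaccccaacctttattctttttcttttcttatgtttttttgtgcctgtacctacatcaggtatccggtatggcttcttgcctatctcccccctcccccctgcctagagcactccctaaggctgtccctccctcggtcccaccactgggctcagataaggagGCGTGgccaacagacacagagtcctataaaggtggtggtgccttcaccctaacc
Cyp1b1: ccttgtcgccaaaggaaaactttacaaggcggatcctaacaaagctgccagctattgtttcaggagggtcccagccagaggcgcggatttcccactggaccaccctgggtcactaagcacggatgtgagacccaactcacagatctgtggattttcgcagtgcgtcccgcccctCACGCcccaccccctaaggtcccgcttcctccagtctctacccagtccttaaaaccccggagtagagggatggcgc
The core was found on either strand in 28.2% of 32851 promoter windows of this length and in 11 of the 46 P450 genes with a window, so a match is a description of the letters and no evidence of binding.

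Cyp1a1 had signals of 7.80, 7.73 and 7.80 in NOS2-/- mice 22 h after LPS, against 8.75 in the NOS2-/- saline mouse. In wild-type mice it had 7.71, 7.48 and 7.84 at 22 h of LPS, against 10.19, 9.80, 10.05 and 10.11 after saline. The LPS mice of either genotype all lay below 8, and no LPS mouse overlapped a saline mouse. At 7 h it was 7.89, 7.92 and 7.81 in NOS2-/- mice and 7.73, 7.74 and 7.80 in wild-type mice, a range that overlapped that of the 22 h mice. Cyp1a1 fell by 0.98 on the log2 scale in NOS2-/- mice (SE 0.14, adjusted p = 8.4e-05) and by 2.36 in wild-type mice at 22 h (SE 0.093, adjusted p = 4.7e-11), a 5.14-fold difference in the wild type. The decrease was smaller in NOS2-/- mice by 1.39 (95% interval 1.03 to 1.75, adjusted p = 0.00024), but this rests on the level of the single NOS2-/- saline mouse, whose array also carried signal of squamous epithelium and muscle. With the 4 wild-type saline mice in its place, Cyp1a1 fell by 2.26 in NOS2-/- mice and the difference between genotypes was 0.10 (adjusted p = 0.55). After LPS itself the genotypes differed by 0.10 at 22 h (95% interval -0.11 to 0.31, adjusted p = 0.55). All these LPS signals lay below the lowest array median, 8.459. Without detection calls, like signals that low cannot show like expression, and the fall may be understated.

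Cyp1b1, which also metabolises oestrogens and retinoids, had signals of 9.24, 9.27 and 9.16 in NOS2-/- mice and 9.84, 9.23 and 10.03 in wild-type mice 22 h after LPS. After saline it had 8.43 in the NOS2-/- mouse and 8.45, 8.65, 8.52 and 8.65 in wild-type mice, below every LPS mouse. It rose by 0.79 in NOS2-/- mice (SE 0.21, adjusted p = 0.010) and by 1.13 in wild-type mice (SE 0.14, adjusted p = 1.2e-05) at 22 h, and by 0.72 in NOS2-/- and 0.58 in wild-type mice at 7 h. The 7 h call in NOS2-/- mice was lost without replicate 2 (adjusted p = 0.051). The 22 h level was lower in NOS2-/- than in wild-type mice by 0.48 (adjusted p = 0.041), although the low wild-type replicate 2 overlapped the NOS2-/- mice. That call was lost when any other mouse of these groups was left out (adjusted p = 0.085 to 0.13). Without that array Cyp1b1 was lower in NOS2-/- mice by 0.71 (log2 difference -0.71, adjusted p = 2.6e-05) and the test of the difference between the 22 h responses gave -0.57 (adjusted p = 0.013). The other 2 probe sets of Cyp1b1 gave 0.54 (called) and -0.03 (not called) for the wild-type response, so the size differed between probe sets. Cyp1a2, the Cyp1 gene best known from liver, was dim and not called in any comparison.

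Ahr, the receptor gene, fell with Cyp1a1, by 1.57 in NOS2-/- mice (adjusted p = 3.0e-04) and by 2.04 in wild-type mice (adjusted p = 2.0e-07) at 22 h. Its signals were 9.78, 9.66 and 9.76 in NOS2-/- mice, against 11.30 in the NOS2-/- saline mouse, and 9.63, 8.82 and 9.92 in wild-type mice, against 11.46 to 11.54 after saline. The other genes listed as receptor targets did not move as one. Tiparp, which encodes a feedback inhibitor of the receptor, rose by 2.35 in NOS2-/- and 1.15 in wild-type mice at 22 h, and rose more in NOS2-/- mice (difference 1.21, adjusted p = 0.011). With wild-type saline mice as the control of both genotypes, where a difference of responses equals the 22 h difference between the genotypes, it was 1.04 (adjusted p = 0.00023), and without wild-type replicate 2 it was 1.02 (adjusted p = 0.0012). Aldh3a1, an aldehyde dehydrogenase, fell by 2.39 in NOS2-/- mice and by 0.99 in wild-type mice, yet after LPS its 22 h level was higher in NOS2-/- mice by 0.86, so the larger fall rests on the NOS2-/- saline mouse (-0.12 against wild-type saline mice, adjusted p = 0.20). Nqo1, a quinone reductase, rose by 0.41 in wild-type mice (adjusted p = 0.0043), and Ahrr, the receptor's repressor, was not called in any comparison. Of the 5 genes of this list measured, 1 was higher and 1 lower in NOS2-/- mice, and 2 were higher and 1 lower in wild-type mice. Against wild-type saline mice 2 were higher and 0 lower in NOS2-/- mice, and without wild-type replicate 2, 3 were higher and 1 lower in wild-type mice.

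**Figure D3:**
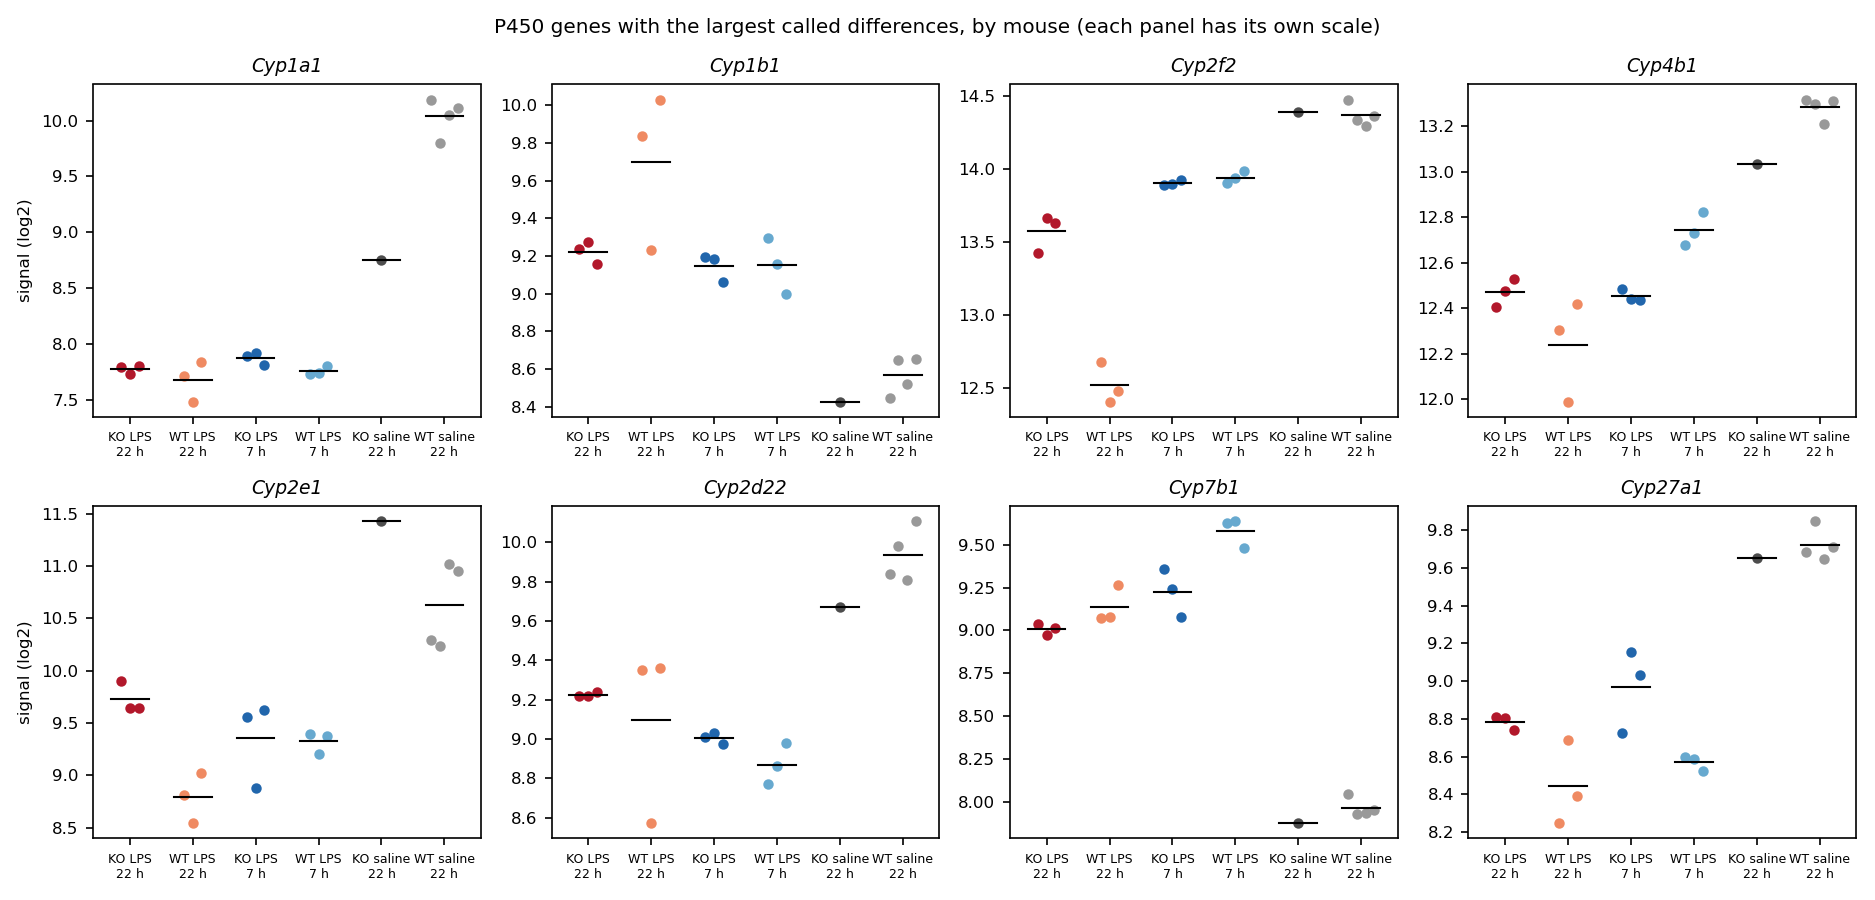
Log2 signal (y axes, a separate scale in each panel) of the 8 P450 genes with a called difference of at least 1, by group (x axes); each point is 1 mouse and the bar is the group mean. KO is NOS2-/- and WT is wild type. For Cyp2f2 the wild-type mice at 22 h of LPS (12.40 to 12.68) lie below every other mouse, and for Cyp1a1 all LPS mice lie below the saline mice.

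Cyp2f2, a club cell enzyme that activates naphthalene in the mouse, fell after LPS, further at 22 h than at 7 h, and at 22 h its level separated the genotypes. Its signals were 13.43, 13.67 and 13.63 in NOS2-/- mice and 12.68, 12.40 and 12.47 in wild-type mice 22 h after LPS. At 7 h they were 13.89, 13.90 and 13.93 in NOS2-/- mice and 13.90, 13.94 and 13.98 in wild-type mice, against 14.40 in the NOS2-/- saline mouse and 14.48, 14.34, 14.29 and 14.37 in wild-type saline mice. The genotypes overlapped at 7 h and did not at 22 h. At 22 h Cyp2f2 fell by 0.82 in NOS2-/- mice (SE 0.12, adjusted p = 7.9e-05) and by 1.85 in wild-type mice (SE 0.078, adjusted p = 9.8e-11), a 3.60-fold decrease in the wild type. Its level 22 h after LPS was higher in NOS2-/- than in wild-type mice by 1.05 (95% interval 0.88 to 1.23, adjusted p = 2.4e-06), a 2.08-fold difference. Both tests of the difference between genotypes were called, by 1.03 for the response to LPS at 22 h (adjusted p = 0.00068) and by 1.09 for the change between 7 h and 22 h (adjusted p = 0.00031). With wild-type saline mice in place of the NOS2-/- saline mouse the responses differed by 1.05 (adjusted p = 2.4e-06), which is the 22 h difference in level, and without replicate 2 of the wild-type LPS group by 0.97 (adjusted p = 0.00012). The 250 bases before the start site of Cyp2f2 (GRCm38.p6, chr7:27119705-27119954, + strand), shown beside those of the Cyp1 genes because the gene separated the genotypes, did not hold the core in these letters.
Cyp2f2: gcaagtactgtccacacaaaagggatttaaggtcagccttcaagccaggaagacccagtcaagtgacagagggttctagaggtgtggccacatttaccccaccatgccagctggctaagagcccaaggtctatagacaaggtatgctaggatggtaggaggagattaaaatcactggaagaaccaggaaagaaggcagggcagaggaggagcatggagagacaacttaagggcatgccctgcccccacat

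Cyp4b1, an airway fatty acid hydroxylase that also activates furans, fell in all 4 LPS comparisons. It had signals of 12.40, 12.48 and 12.53 in NOS2-/- mice at 22 h, against 13.03 in the NOS2-/- saline mouse. In wild-type mice it had 12.30, 11.99 and 12.42 at 22 h, against 13.32, 13.30, 13.21 and 13.31 after saline. No LPS mouse reached a saline mouse of its genotype. It fell by 0.56 in NOS2-/- mice (SE 0.13, adjusted p = 0.0037) and by 1.05 in wild-type mice (SE 0.085, adjusted p = 1.2e-07) at 22 h. The difference of these responses was not called. Against wild-type saline mice, Cyp4b1 fell by 0.82 in NOS2-/- mice and the responses differed by 0.23 (adjusted p = 0.10). With the NOS2-/- saline mouse kept and wild-type LPS replicate 2 left out, they differed by 0.36 (adjusted p = 0.031). At 7 h it had 12.49, 12.44 and 12.44 in NOS2-/- mice and 12.68, 12.73 and 12.82 in wild-type mice. Cyp4b1 fell further between 7 h and 22 h in wild-type mice, by 0.51 (adjusted p = 0.0020), while in NOS2-/- mice the same difference was 0.02 (95% interval -0.18 to 0.21). The test of this difference gave 0.52 (adjusted p = 0.041), a call lost when any 1 of the NOS2-/- LPS mice or the wild-type 7 h mice was left out (adjusted p = 0.063 to 0.12).

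The other genes of club cells gave a mixed picture beside Cyp2f2. Of the 6 club cell genes measured, 1 was higher and 2 lower at 22 h in each genotype (1 and 3 in NOS2-/- mice against wild-type saline mice, 2 and 2 in wild-type mice without replicate 2). Scgb3a2, a secretoglobin, fell by 0.36 in NOS2-/- and by 0.76 in wild-type mice, and Aldh1a7, an aldehyde dehydrogenase, fell by 0.87 in NOS2-/- and by 1.47 in wild-type mice. After LPS both were higher in NOS2-/- than in wild-type mice at 22 h, Scgb3a2 by 0.39 (adjusted p = 0.0018) and Aldh1a7 by 0.41 (adjusted p = 0.045), a call lost without wild-type replicate 2 (0.28, adjusted p = 0.096). Of all 6 genes, 2 were called higher and 1 lower in NOS2-/- mice there, with differences from -0.52 to 0.41 and a median of -0.10. For the difference of the 22 h responses none of the 6 was called. For that of the changes between 7 h and 22 h, 1 was called, higher. Reg3g, an antibacterial lectin, rose by 0.96 in NOS2-/- mice and 1.65 in wild-type mice. Scgb1a1, the main club cell secretoglobin, is named outside the rule because it defines the cell type; it differed by -0.18 in NOS2-/- mice and -0.04 in wild-type mice (adjusted p = 0.24 and 0.73), but at 14.6 to 14.9 it lay near the top of the arrays' scale, whose highest values were 15.02 to 15.21. The level of the club cell list (median of its genes minus the array median) was 3.85 to 4.10 in NOS2-/- mice and 4.21 to 4.34 in wild-type mice at 22 h of LPS, against 3.90 in the NOS2-/- saline mouse and 4.01 to 4.14 in wild-type saline mice. The part of club cells in the Cyp2f2 and Cyp4b1 differences was not tested.

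**Figure D4:**
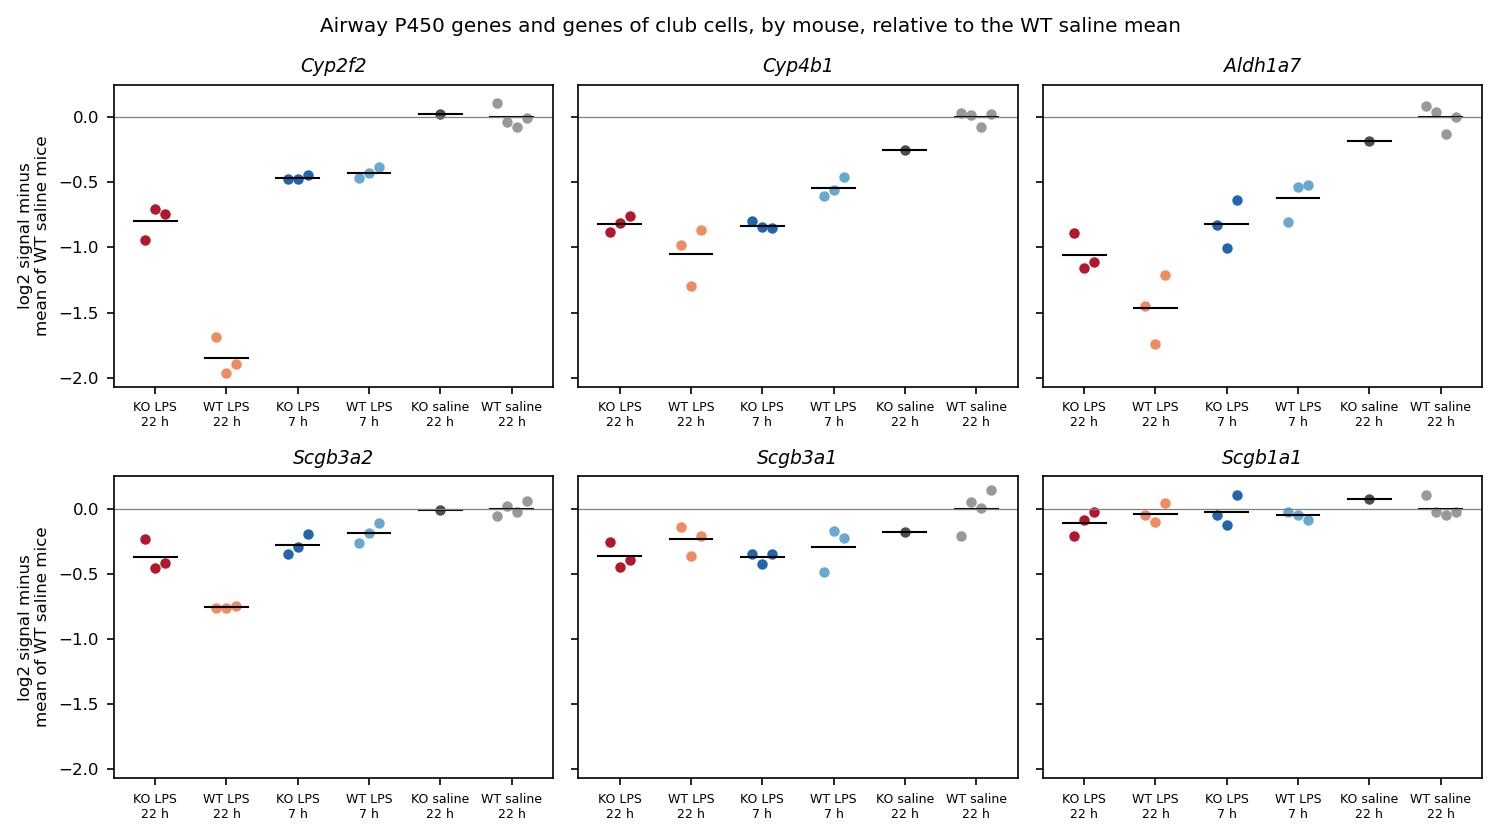
Log2 signal of each mouse minus the mean of the 4 wild-type saline mice (y axes) for Cyp2f2, Cyp4b1 and 4 club cell genes, by group (x axes); points are mice and bars are group means. KO is NOS2-/- and WT is wild type. The wild-type mice at 22 h of LPS lie lowest for Cyp2f2 and Scgb3a2, while Scgb1a1 stays near 0 in every group. Not every measured club cell gene is shown, and Reg3g, which rose at 22 h of LPS in both genotypes, is among those left out.

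Cyp2e1, which oxidises ethanol and other small molecules, fell after LPS in both genotypes. At 22 h of LPS it had signals of 9.90, 9.64 and 9.65 in NOS2-/- mice, against 11.43 in the NOS2-/- saline mouse. In wild-type mice it had 8.82, 8.54 and 9.02 at 22 h of LPS, against 10.29, 10.24, 11.02 and 10.95 after saline. The LPS and saline mice did not overlap in either genotype. Cyp2e1 fell by 1.70 in NOS2-/- mice (SE 0.31, adjusted p = 0.00076) and fell by 1.83 in wild-type mice (SE 0.21, adjusted p = 4.8e-06). At 22 h after LPS its level was higher in NOS2-/- than in wild-type mice by 0.94 (95% interval 0.46 to 1.41, adjusted p = 0.0095), whereas at 7 h the genotypes differed by 0.03 (95% interval -0.45 to 0.50). The difference of the 22 h responses was 0.13 and was not called (95% interval -0.67 to 0.94). With wild-type saline mice in place of the NOS2-/- saline mouse, Cyp2e1 fell by 0.89 in NOS2-/- mice and the difference of the responses was 0.94 and called (adjusted p = 0.0095). With the NOS2-/- saline mouse kept as control and wild-type replicate 2 left out, the difference of the responses was 0.0059 and was not called. The 22 h level after LPS was then still higher in NOS2-/- mice, by 0.81 (adjusted p = 0.012).

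Adipoq, the adipocyte hormone gene, went partly with Cyp2e1, and no correlation was computed. Among wild-type saline mice, replicates 3 and 4, higher for Cyp2e1, had Adipoq signals of 9.89 and 9.92, and replicates 1 and 2 had 8.91 and 9.23. Within either of these pairs, the mouse higher for Cyp2e1 was lower for Adipoq. The NOS2-/- saline mouse, highest for Cyp2e1, had 10.84. At 22 h of LPS, Adipoq was 9.52, 8.94 and 9.30 in NOS2-/- mice and 6.80, 6.56 and 7.04 in wild-type mice, higher in NOS2-/- mice by 2.45 (adjusted p = 3.4e-05). Fabp4, the other adipose gene measured, which lung endothelium and macrophages also express, differed between the genotypes at 22 h by 0.12 and was not called. The level of this 2-gene list was 1.04 to 1.63 in NOS2-/- mice and -0.04 to 0.22 in wild-type mice at 22 h of LPS, against 2.61 in the NOS2-/- saline mouse and 0.72 to 1.79 in wild-type saline mice. The part of adipose tissue in the Cyp2e1 differences was not tested.

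**Figure D5:**
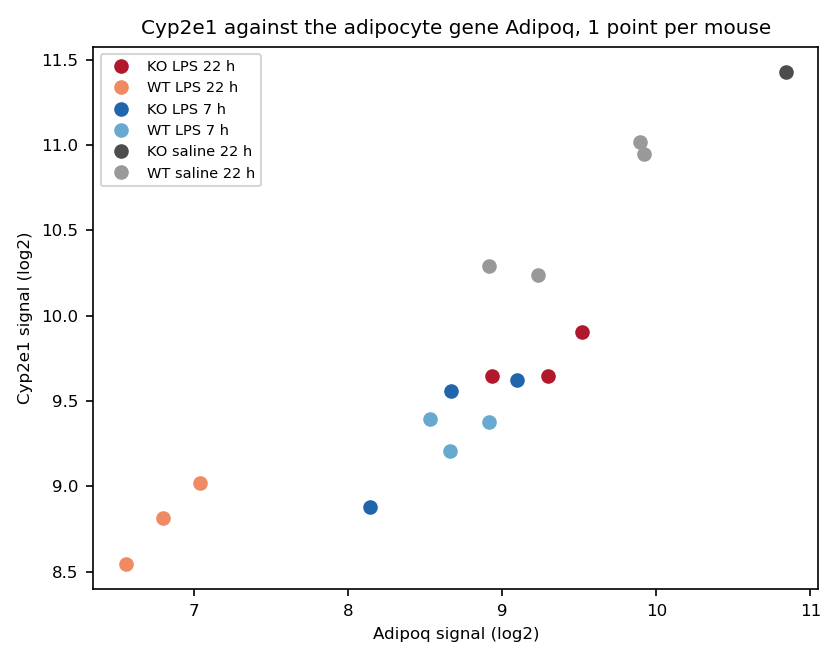
Log2 signal of Cyp2e1 (y axis) against that of Adipoq (x axis), 1 point per mouse, coloured by group (KO is NOS2-/-, WT is wild type). The wild-type mice at 22 h of LPS are lowest for Adipoq. For Cyp2e1 they overlap NOS2-/- replicate 2 at 7 h of LPS (8.88, against 8.54 to 9.02) and lie below the other mice. The NOS2-/- saline mouse, at 11.43 and 10.84, is highest on both axes.

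Of the 27 genes of Cyp2 families that act mainly on foreign compounds, at 22 h 1 was higher and 3 lower in NOS2-/- mice and 1 higher and 4 lower in wild-type mice. Cyp2d22, the mouse gene usually set beside human CYP2D6, had signals of 9.22, 9.22 and 9.24 in NOS2-/- mice, against 9.67 in the NOS2-/- saline mouse, and 9.35, 8.57 and 9.36 in wild-type mice at 22 h, against 9.84, 9.98, 9.81 and 10.11 after saline. At 7 h it had 9.01, 9.03 and 8.97 in NOS2-/- mice and 8.77, 8.86 and 8.98 in wild-type mice. Every LPS mouse lay below the saline mice of its genotype. Cyp2d22 fell by 0.84 at 22 h (adjusted p = 0.00034) and by 1.06 at 7 h (adjusted p = 3.6e-05) in wild-type mice. In NOS2-/- mice it fell by 0.67 at 7 h (adjusted p = 0.042), a call lost without any 1 of those 3 mice (adjusted p = 0.067 to 0.083), while the 22 h difference of -0.45 was not called (adjusted p = 0.16) unless wild-type saline mice served as its control (-0.71, adjusted p = 0.0011). Cyp2s1, an extrahepatic enzyme of epithelia, fell by 0.57 in NOS2-/- mice and by 0.47 in wild-type mice at 22 h.

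Cyp2b10, a target of the constitutive androstane receptor that the mouse lung expresses, rose by 0.68 in NOS2-/- mice (adjusted p = 0.0020) and by 0.33 in wild-type mice (adjusted p = 0.013) at 22 h. Its signals were 12.57, 12.63 and 12.67 in NOS2-/- mice and 13.08, 12.67 and 13.02 in wild-type mice, against 11.94 in the NOS2-/- saline mouse and 12.51 to 12.64 in wild-type saline mice. The wild-type call was lost without replicate 1 or 3 of its LPS mice (adjusted p = 0.069 and 0.052). The NOS2-/- rise rests on the low saline mouse: against wild-type saline mice the difference was 0.03 (adjusted p = 0.88). At 7 h Cyp2b10 was lower in NOS2-/- mice (12.49, 12.17 and 12.25) than in wild-type mice (12.81, 12.88 and 12.82) by 0.54 (log2 difference -0.54, adjusted p = 0.023), without overlap, and without replicate 2 of the wild-type LPS group it was also lower at 22 h (-0.43, adjusted p = 0.00087). Its other 2 probe sets gave 0.32 (called) and 0.25 (not called) in wild-type mice at 22 h, and because close relatives of Cyp2b10 can share probes, its values are uncertain as to the gene. Cyp2c23, an arachidonate epoxygenase with a dim probe set, fell by 0.27 in wild-type mice at 7 h, a call lost without replicate 2 (adjusted p = 0.051). Among the 5 Cyp3a genes, Cyp3a13 fell by 0.29 at 22 h in wild-type mice and no other was called. The probe set that names Cyp2a5 and Cyp2a4 together, which stands outside the 63 genes, fell by 0.57 in wild-type mice at 22 h (adjusted p = 0.011). The LPS and saline mice overlapped there. At 7 h it fell further, by 0.79 in wild-type and by 1.08 in NOS2-/- mice, both called. In NOS2-/- mice the 22 h difference from saline, -0.16, was not called, and the 22 h level was 0.92 above that at 7 h (adjusted p = 0.0037).

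Enzymes of fatty acids and eicosanoids, the Cyp2j and Cyp4 families, numbered 14, of which 3 were lower at 22 h in NOS2-/- mice, and 1 was higher and 4 lower in wild-type mice. Beside Cyp4b1, the falling genes were Cyp4v3, an omega-hydroxylase of fatty acids (-0.65 in wild-type mice, adjusted p = 0.0036), Cyp4f16 (-0.50 in NOS2-/- and -0.35 in wild-type mice), Cyp4f15 (-0.29 in wild-type mice) and Cyp2j9 (-0.35 in NOS2-/- mice, a call lost without replicate 1 or 2 of the LPS mice, adjusted p = 0.051 and 0.053). In wild-type mice Cyp4v3 had 9.46, 8.82 and 9.75 at 22 h of LPS and 9.90, 10.12 and 10.08 at 7 h, against 9.84 to 10.13 after saline, and without replicate 2 it fell by 0.39 at 22 h. The second Cyp4f16 probe set gave 0.02 in wild-type mice and was not called. Cyp4f18, which oxidises leukotriene B4 in mouse neutrophils, rose by 0.32 in wild-type mice at 22 h (adjusted p = 0.015), a call lost without replicate 1 (0.19, adjusted p = 0.083). All 4 neutrophil genes measured rose at 22 h in both genotypes, Ngp by 4.45 in NOS2-/- and 4.63 in wild-type mice, and the part of neutrophils was not tested. In NOS2-/- mice Cyp4f18 differed by -0.26 at 22 h and was not called, and it was lower than in the NOS2-/- saline mouse by 0.42 at 7 h (log2 difference -0.42, adjusted p = 0.046), a call lost against wild-type saline mice (-0.09, adjusted p = 0.50).

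Among 10 measured genes that make or clear the neighbouring lipid mediators, 1 was higher and 4 lower in NOS2-/- mice and 4 lower in wild-type mice at 22 h (2 and 4 in NOS2-/- mice against wild-type saline mice, 1 and 5 in wild-type mice without replicate 2). Ephx1, the microsomal epoxide hydrolase that hydrates P450-made epoxides, fell by 1.26 in NOS2-/- mice and by 2.43 in wild-type mice, and this difference between the genotypes was called (1.17, adjusted p = 0.00055, or 0.89 with wild-type saline mice as control, adjusted p = 2.2e-05). Ptgis, prostacyclin synthase, fell by 1.18 in NOS2-/- and by 1.34 in wild-type mice. Ptgs2, the inducible cyclooxygenase, rose by 2.11 in NOS2-/- mice at 22 h, while the 0.66 in wild-type mice was not called. With the NOS2-/- saline mouse as control, Ephx1 was the only listed gene called for the difference of responses, so Ptgs2 was not.

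Enzymes of sterols and bile acids included the P450 gene with the largest called rise, Cyp7b1, an oxysterol 7-alpha-hydroxylase that turns over 25-hydroxycholesterol. Its signals were 9.04, 8.97 and 9.01 in NOS2-/- mice and 9.07, 9.08 and 9.26 in wild-type mice 22 h after LPS, against 7.88 in the NOS2-/- saline mouse and 8.05, 7.93, 7.94 and 7.95 in wild-type saline mice. At 7 h they were 9.36, 9.24 and 9.08 in NOS2-/- mice and 9.63, 9.64 and 9.48 in wild-type mice. All 12 LPS mice lay above all saline mice. Cyp7b1 rose by 1.13 in NOS2-/- mice (SE 0.11, adjusted p = 2.9e-06) and by 1.17 in wild-type mice (SE 0.076, adjusted p = 1.1e-08) at 22 h, and by 1.35 in NOS2-/- and 1.62 in wild-type mice at 7 h. At 7 h its level was lower in NOS2-/- mice by 0.36 (log2 difference -0.36, adjusted p = 0.042), and in wild-type mice it was lower at 22 h than at 7 h by 0.44 (log2 difference -0.44, adjusted p = 0.0023). Its second probe set gave larger rises, 1.57 in NOS2-/- and 1.91 in wild-type mice at 22 h. Ch25h, which makes 25-hydroxycholesterol, rose beside it, by 2.86 in NOS2-/- and 2.39 in wild-type mice at 22 h.

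Cyp27a1, the mitochondrial sterol 27-hydroxylase, fell. It had signals of 8.81, 8.80 and 8.74 in NOS2-/- mice, against 9.65 in the NOS2-/- saline mouse, and 8.25, 8.69 and 8.39 in wild-type mice at 22 h, against 9.69, 9.85, 9.65 and 9.71 after saline. At 7 h it had 8.73, 9.15 and 9.03 in NOS2-/- mice and 8.60, 8.59 and 8.52 in wild-type mice. No LPS mouse overlapped the saline mice. It fell by 0.87 in NOS2-/- mice (SE 0.16, adjusted p = 0.00073) and by 1.28 in wild-type mice (SE 0.11, adjusted p = 1.5e-07) at 22 h. The NOS2-/- mice lay above the wild-type mice at both times after LPS, by 0.34 at 22 h (adjusted p = 0.051) and 0.40 at 7 h (adjusted p = 0.070), neither of which was called, and without replicate 2 of the wild-type LPS group the 22 h difference was 0.47 (adjusted p = 0.0019). Cyp39a1, which hydroxylates 24-hydroxycholesterol, fell by 0.79 in wild-type mice at 22 h (adjusted p = 3.3e-05) and was not called in NOS2-/- mice, whose 1 saline mouse had 8.09, against 8.48 to 8.56 in wild-type saline mice. With wild-type saline mice as the control it fell by 0.54 in NOS2-/- mice.

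Cyp51, the lanosterol demethylase of cholesterol synthesis, rose by 0.49 in wild-type mice at 7 h (adjusted p = 0.044), a call that its other 2 probe sets did not share (0.06 and 0.05) and that was lost without any 1 of the 7 h mice or saline replicate 2, 3 or 4 (adjusted p = 0.057 to 0.20). In NOS2-/- mice at 22 h it had 7.19, 7.01 and 7.13, against 7.82 in the saline mouse, a difference of -0.71 that was not called (-0.30 against wild-type saline mice, adjusted p = 0.21). Without wild-type replicate 2 Cyp51 was called at 22 h, 0.42 higher after LPS in wild-type mice (adjusted p = 0.022) and lower in NOS2-/- than in wild-type LPS mice (-0.72, adjusted p = 0.0015). Genes of cholesterol synthesis on the sterol list were lower there: Idi1, an isoprenoid isomerase, fell by 1.08, Sc5d, a sterol desaturase, fell by 1.07 and Dhcr7, a sterol reductase, fell by 0.85. Against wild-type saline mice these log2 differences were -0.81, -0.79 and -0.70, all called. After LPS their 22 h levels were also lower in NOS2-/- than in wild-type mice, with log2 differences of -0.75, -0.57 and -0.26, of which that of Dhcr7 lost its call without wild-type replicate 2 (-0.21, adjusted p = 0.080). Of the 12 sterol genes outside the P450 family, 1 was higher and 6 lower in NOS2-/- mice, and 1 higher and 4 lower in wild-type mice at 22 h (2 and 3 without replicate 2).

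The hormone and vitamin P450 genes moved little. Cyp27b1, which activates vitamin D in kidney and macrophages, rose by 0.74 in NOS2-/- mice (adjusted p = 0.0039) and by 0.54 in wild-type mice (adjusted p = 0.0011) at 7 h. It had 8.12, 8.32 and 7.87 in NOS2-/- mice, against 7.36 in the saline mouse, and 7.92, 8.03 and 8.09 in wild-type mice, against 7.41 to 7.58 after saline. At 22 h it differed from saline by 0.39 in NOS2-/- and 0.16 in wild-type mice, neither called. Both passed under an alternative, the NOS2-/- difference against wild-type saline mice (0.29, adjusted p = 0.047) and the wild-type one without replicate 2 (0.27, adjusted p = 0.034). Cyp24a1, which degrades active vitamin D, and the 4 genes of steroid hormone synthesis were not called in any comparison. Cyp26a1, a retinoic acid hydroxylase, was not called, and its mean in wild-type mice at 22 h rested on replicate 2, at 10.52, against 8.98 in replicate 1 and a like value in replicate 3. Of the 15 retinoid genes measured (17 listed), 4 were lower in NOS2-/- mice and 1 was higher and 5 lower in wild-type mice at 22 h (2 higher and 4 lower in NOS2-/- mice against wild-type saline mice, 1 and 4 in wild-type mice without replicate 2). Aldh1a1, a retinal dehydrogenase, fell by 0.48 in NOS2-/- and fell by 1.55 in wild-type mice. Cyp26b1, another retinoic acid hydroxylase, was not analysed here.

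The genes that serve P450 enzymes mostly fell. Of 13 redox partners and enzymes of haem supply, 1 was higher and 8 lower in NOS2-/- mice and 1 higher and 11 lower in wild-type mice at 22 h, with a median of -0.55 in NOS2-/- and -0.53 in wild-type mice, against 0.03 and -0.00 over all probe sets. Against wild-type saline mice 1 was higher and 10 lower in NOS2-/- mice. Cyb5r3, a cytochrome b5 reductase, fell by 0.75 in NOS2-/- and by 0.81 in wild-type mice. Alad and Alas1, 2 enzymes of haem synthesis, fell by 0.77 and 0.57 in wild-type mice. The exception was Fdx1, the ferredoxin of mitochondrial P450 enzymes, which rose by 1.10 in NOS2-/- mice and 0.33 in wild-type mice and rose more in NOS2-/- mice (difference 0.77, adjusted p = 0.018). With wild-type saline mice as control that difference was 0.50 (adjusted p = 0.0036), which is also the 22 h difference in level. Por, the reductase of microsomal P450 enzymes, was not analysed here.

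In 2 lists of drug-metabolising enzymes outside the P450 family, every gene called at 22 h was lower, except 1 conjugating enzyme that was called higher in wild-type mice once replicate 2 was left out. Of 21 flavin monooxygenases, dehydrogenases and carbonyl-metabolising enzymes, 15 were lower in NOS2-/- mice and 18 in wild-type mice, with a median of -0.86 in NOS2-/- and -1.10 in wild-type mice. Fmo1, a flavin monooxygenase, fell by 1.91 in NOS2-/- and by 2.57 in wild-type mice, and Adh1, an alcohol dehydrogenase, fell by 2.97 in NOS2-/- and fell by 2.23 in wild-type mice. Of 30 conjugating enzymes, 10 were lower in NOS2-/- and 14 in wild-type mice. Against wild-type saline mice the NOS2-/- counts were 18 of 21 and 11 of 30. Gsta3, a glutathione transferase, fell by 1.26 in wild-type mice, while in NOS2-/- mice it differed by 0.43 and was not called, and the responses differed by 1.69 (adjusted p = 0.00015, or 1.29 with wild-type saline mice as control, adjusted p = 6.0e-06). Among 27 transcriptional regulators of P450 genes, 3 were higher and 7 lower in NOS2-/- mice and 1 higher and 9 lower in wild-type mice. Against wild-type saline mice the NOS2-/- counts were 3 and 8, and without replicate 2 the wild-type counts were 2 and 8. Cebpb, an acute-phase activator, rose by 2.06 in NOS2-/- and by 1.66 in wild-type mice, and Cebpa, its relative in differentiated epithelium, fell by 0.76 in each.

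Markers of the lung's cell types moved widely at 22 h, and their part in the P450 results was not tested. Endothelial genes fell in 5 of 6 cases in each genotype (1 rose in NOS2-/- mice), fibroblast genes in 4 of 5 in each (1 rose in wild-type mice), and smooth muscle genes in 3 of 4 in NOS2-/- and 4 of 4 in wild-type mice. Of 5 alveolar type 2 genes, 1 rose and 3 fell in NOS2-/- mice and 1 rose and 4 fell in wild-type mice, and 2 of 4 alveolar type 1 genes fell in each. Of 2 ciliated cell genes, 1 fell in NOS2-/- mice, and 1 rose and 1 fell in wild-type mice. Of 5 macrophage genes, 2 fell in NOS2-/- mice and 3 rose and 2 fell in wild-type mice. The list level of endothelium was 1.53 to 1.60 in NOS2-/- and 1.16 to 1.69 in wild-type mice at 22 h of LPS, against 2.95 in the NOS2-/- saline mouse and 3.01 to 3.06 in wild-type saline mice. Squamous and skeletal muscle genes were lower in NOS2-/- LPS mice than in the NOS2-/- saline mouse in 4 of 5 and 5 of 5 cases, whereas in wild-type mice the largest difference of these genes from saline was 0.33, that of Acta1. Against wild-type saline mice, 4 of 5 skeletal muscle genes were instead called higher in NOS2-/- LPS mice and 0 of 5 squamous genes were called, while 2 macrophage genes rose and 1 fell, 4 smooth muscle and 4 alveolar type 2 genes fell, and 3 alveolar type 1 genes fell and 1 rose.

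Between the genotypes after LPS, few P450 genes differed. At 22 h, Cyp2f2 and Cyp2e1 were higher and Cyp1b1 lower in NOS2-/- than in wild-type mice, 3 of 63 genes (4.76%), where 16.4% of all probe sets were called (9.63% higher, 6.81% lower). Without replicate 2 of the wild-type group, 3 P450 genes were higher and 6 lower, with 26.6% of all probe sets called. At 7 h, 2.01% of all probe sets were called (0.526% higher, 1.48% lower). Among the P450 genes the share was again 4.76%, with Cyp2c23 higher and Cyp2b10 and Cyp7b1 lower in NOS2-/- mice. These 7 h calls had adjusted p-values of 0.023 to 0.048, and each was lost when any 1 mouse of the 2 groups was left out (adjusted p = 0.055 to 0.20), except that Cyp2b10 and Cyp7b1 kept theirs without replicate 1 of the NOS2-/- mice. The responses to LPS at 22 h differed for Cyp1a1 and Cyp2f2 (4.70% of all probe sets, 2.52% higher and 2.18% lower), and the changes between 7 h and 22 h for Cyp2f2 and Cyp4b1 (3.04%, 2.49% higher and 0.544% lower), each with a positive NOS2-/- minus wild-type difference. Without replicate 2 of the wild-type mice at 22 h, the responses differed for 8 genes (5 higher, 3 lower, 15.2% of all probe sets) and the changes for 4 (2 higher, 2 lower, 7.20%).

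Between 22 h and 7 h of LPS, the wild type changed in 7 P450 genes and the NOS2-/- mice in 1. In NOS2-/- mice only Cyp2f2 was called, lower at 22 h by 0.33 (log2 difference -0.33, adjusted p = 0.022), where 7.81% of all probe sets were called (4.65% higher, 3.16% lower). This call was lost without any 1 of these mice but replicate 2 at 22 h (adjusted p = 0.052 to 0.12). In wild-type mice 2 were higher at 22 h (Cyp1b1 by 0.55 and Cyp4f18 by 0.39) and 5 lower (Cyp2f2, with a log2 difference of -1.42, Cyp4v3, Cyp4b1, Cyp7b1 and Cyp27b1), where 10.8% of all probe sets were called (3.15% higher, 7.68% lower). Cyp1b1, Cyp4f18, Cyp4v3 and Cyp27b1 lost the call without 1 or another of these mice (adjusted p = 0.051 to 0.16). Except for Cyp2f2 and Cyp4b1, these changes were not shown to differ between the genotypes by the test of the difference, which for Cyp1b1 gave -0.48 (adjusted p = 0.25) and, without wild-type replicate 2 at 22 h, -0.71 (adjusted p = 0.0021). For Cyp4f18 it gave -0.37 (adjusted p = 0.031) without that mouse.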

How the data were processed

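Whole-lung RNA of 17 mice was hybridised to Affymetrix MOE430A arrays, 1 array per mouse. The authors read the arrays with GeneChip 5.0 software and used the Bioconductor package affy for background correction, normalization and expression values, and the deposited values are on the log2 scale, 1 per probe set and array. For affy's method and version, the sources used here give nothing. Array medians were 8.459 to 8.552. No detection calls were used. Precision is limited by how many arrays there were.

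Of 22690 probe sets, 64 controls were left out. Gene names came from the platform annotation, in which 20380 probe sets named 1 gene, 691 several and 1555 none. The remaining 22626 probe sets were fitted with 1 mean per group (limma 3.58.1, lmFit and eBayes, R 4.3.3) over all 17 arrays, and p-values were adjusted by Benjamini-Hochberg over all of them. Calls required an adjusted p under 0.05. There were 10 comparisons, namely LPS against saline for both genotypes and times, NOS2-/- against wild type at each time of LPS, 22 h against 7 h of LPS in each genotype, and 2 differences of differences. The fit was tested on simulated data.

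Values in every mouse were given for P450 genes called with a log2 difference of at least 1 in any comparison and for Cyp1a1, Cyp1b1, Cyp2f2 and Cyp4b1. Other P450 genes were given by counts with up to 3 examples per role, except where more were called, and up to 4 genes per list were named by the size of their difference at 22 h. Other examples, and the values printed for them, were chosen after the values were seen. The members and lists were chosen with earlier results of these data known. Alternatives were other scalings, a floor on low signals, the mean of a gene's probe sets, array weights, another prior, fewer groups in the fit, a replicate block, each mouse left out and, for NOS2-/- mice, wild-type saline mice as the control. Leaving out replicate 2 of the wild-type LPS mice together with that control, and both alternatives for the lists, were added after seeing the data. Promoter windows came from RefSeq (GRCm38.p6), in which 46 of the 63 genes had one.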

Additional observations from a re-analysis of the deposited data

Results flagged for a closer look

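In wild-type saline mice, the lowest Cyp4b1 signal, 13.21 in replicate 3, lay apart from the other 3, with a gap of 0.83 of the group's whole range, just past Dixon's critical value for 4 samples. It was the only such mouse among the 20 genes examined, and chance gives such a gap in about 1 in 20 groups.

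The response of Cyp1a1 to LPS at 22 h differed between the genotypes by 1.39, a value that rests on the single NOS2-/- saline mouse. For Cyp2f2 the 22 h responses differed by 1.03 and the changes between 7 h and 22 h by 1.09, NOS2-/- minus wild type. For Cyp4b1 the changes between 7 h and 22 h differed by 0.52.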

How the results depend on the processing

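Of 71 called gene and comparison pairs, none changed direction under any alternative run. Over all alternatives, 937 of 1055 values kept call and direction and 118 lost the call. With the replicate number as a block, 60 of 71 pairs kept their call and 11 lost it, and the block left 0 P450 genes called for NOS2-/- mice at 22 h against 7 h, 1 for the genotypes at 7 h and 1 for the difference of the changes. Mice with the same number did not deviate together (30 pairs, r from -0.385 to 0.362, 4 over 0.1), so the numbers were not taken as pairs. Counts of called P450 genes moved by over 1.5 times as follows, and the cause was not tested. For NOS2-/- mice at 22 h against 7 h (1 called), 2 were called among probe sets above the 40th percentile of signal, 2 with array medians subtracted, 15 with array weights and 8 with the groups fitted alone. For LPS at 22 h in NOS2-/- mice (11), array weights gave 28 (15 higher, 13 lower) and the groups alone 27 (14 higher, 13 lower). For the same comparison, wild-type saline mice as control gave 17, and this control without wild-type LPS replicate 2 at 22 h gave 25. For LPS at 7 h in NOS2-/- mice (11), array weights gave 32 (22 higher, 10 lower) and the wild-type control 19. More genes were thus called higher than lower in NOS2-/- mice with array weights at both times, and with the groups alone at 22 h. For LPS at 7 h in wild-type mice (15), array weights gave 23. Between the genotypes at 22 h (3), the signal floor gave 5, quantile normalization 5, array weights 9 and the combined alternative 9. Between the genotypes at 7 h (3), array weights gave 36 and the groups alone 18. For the wild type at 22 h against 7 h (7), the groups alone gave 1. For the difference of 22 h responses (2), median subtraction gave 4, quantile normalization 4, array weights 9 and the combined alternative 9. For the difference of the changes (2), array weights gave 5, and quantile normalization and the groups alone gave 1 each. The estimation of array weights did not reach convergence.

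Leaving out single mice gave 0 to 1 calls for NOS2-/- mice at 22 h against 7 h, 10 to 11 and 8 to 12 for LPS at 22 h and 7 h in NOS2-/- mice, 16 to 22 and 12 to 14 in wild-type mice, 3 to 10 for the wild type at 22 h against 7 h, 2 to 9 between the genotypes at 22 h, 0 to 4 between them at 7 h, 2 to 8 for the difference of 22 h responses and 1 to 4 for that of the changes. The highest counts of the genotype comparison at 22 h and of both differences came without wild-type replicate 2 at 22 h.

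With 3 mice per LPS group and 1 NOS2-/- saline mouse, small differences could not be told from the spread between mice, and 38 of the 63 genes were dim.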
